A study of Rattus norvegicus with 6 samples.

Results

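Of 17051 genes in the deposited tables, 10 genes of the kidney's defence against oxidants were examined. They are Nfe2l2, which encodes the transcription factor Nrf2, the Nrf2 target genes Nqo1, Hmox1, Txnrd1 and Srxn1, and the enzyme genes Gpx1, Gpx3, Cat, Sod1 and Sod2. The genes were taken by symbol, and all 10 were found with a single transcript each. RNA of kidney tissue was sequenced from 6 male Sprague Dawley rats, each as a library of its own. The AL group held 3 rats on a normal diet, standard chow given freely (rats 61, 71 and 88), and the HD group held 3 rats on the hyperammonemic diet, chow mixed with amino acids in the proportions of hemoglobin (rats 64, 67 and 69). Both diets lasted a week, the rats were not genetically altered, and their age was not given in the sources used here. The diet raises the ammonia load without liver disease, so it models the state before hyperammonemia.

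Nrf2 is held in the cytoplasm by Keap1, which marks it for degradation, and is released when oxidants or electrophiles modify Keap1. In the nucleus it pairs with a small Maf protein at antioxidant response elements and switches on genes for glutathione and thioredoxin metabolism and for quinone and heme breakdown, while Bach1 represses part of the same genes. The superoxide dismutases turn superoxide into hydrogen peroxide, which catalase, the glutathione peroxidases and the peroxiredoxins remove. The proximal tubule, rich in mitochondria and peroxisomes, is the main site of this chemistry in the kidney and the main source of the plasma glutathione peroxidase encoded by Gpx3.

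The promoters of the genes on which the results turn are shown first, so that the presence or absence of the antioxidant response element can be seen. The element was searched as TGACNNNGC on both strands, thus also as GCNNNGTCA, in the 250 bases before each RefSeq start site of genome build GRCr8. Windows were found for 9 of the 10 genes, and Hmox1 had no entry. Of 10 windows (Txnrd1 has 2 starts), 2 held a match, against 10.1% of all 33469 windows of the same length. The match of Txnrd1 began 78 bases before the start and that of Sod2 began 35 bases before it. The sequences run 5′ to 3′ toward the start, and capitals mark the match.
Txnrd1, chr7:22755905-22756154, - strand: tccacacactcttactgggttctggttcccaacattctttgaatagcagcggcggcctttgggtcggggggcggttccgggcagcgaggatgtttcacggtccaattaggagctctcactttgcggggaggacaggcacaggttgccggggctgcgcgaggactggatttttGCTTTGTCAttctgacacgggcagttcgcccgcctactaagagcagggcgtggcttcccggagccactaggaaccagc
Sod2, chr1:50050169-50050418, - strand: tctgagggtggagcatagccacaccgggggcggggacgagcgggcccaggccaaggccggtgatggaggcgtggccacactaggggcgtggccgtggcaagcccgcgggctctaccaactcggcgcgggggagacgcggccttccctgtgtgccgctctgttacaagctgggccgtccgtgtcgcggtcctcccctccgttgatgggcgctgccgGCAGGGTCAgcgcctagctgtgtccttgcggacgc
Gpx3, chr10:39529085-39529334, + strand: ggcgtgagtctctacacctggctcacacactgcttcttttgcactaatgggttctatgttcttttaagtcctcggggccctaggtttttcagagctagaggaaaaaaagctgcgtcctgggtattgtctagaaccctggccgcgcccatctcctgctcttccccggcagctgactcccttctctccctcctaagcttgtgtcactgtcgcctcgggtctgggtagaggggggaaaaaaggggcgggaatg
The windows of Txnrd1 and Sod2 are shown for their match and that of Gpx3 because it had the largest difference between the diets and no match. The other windows, those of Nfe2l2, Nqo1, Srxn1, Gpx1, Cat, Sod1 and the other start of Txnrd1, held no match either. These letters describe the window only, since elements farther upstream and other spellings of the element were not searched. A match does not show that Nrf2 binds there, and a window without one may still hold the element in another spelling.

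The estimated read counts summed to between 12499945 (rat 64) and 30466461 (rat 69) per rat, and single genes among the 10 had between 44 (Hmox1) and 62986 (Cat) counts in a rat. Levels are given as CPM, which are counts relative to library size after TMM normalization, with the SD over 3 rats. Of 11553 genes with at least 30 counts in at least 1 rat, edgeR's quasi-likelihood test called 0 (0%) at the adjusted threshold of 0.05 and 1224 at the same unadjusted threshold, and DESeq2 called 182 after adjustment and 1325 before it. Marker levels of single cell types differed between rats within a group. The 6 endothelial marker genes summed to 88.4, 150 and 151 CPM in rats 64, 61 and 67, against 308, 434 and 449 CPM in rats 69, 71 and 88. Markers of the proximal tubule (Lrp2), thick ascending limb (Umod) and collecting duct (Aqp2) were abundant in every rat. In tissue RNA, more cells of a type and more RNA per cell cannot be told apart.

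Among the 10 genes, Gpx3 had the largest ratio of HD to AL levels, 2.41 times, and it was the only gene whose groups did not overlap. Txnrd1 and Gpx1 were at 1.39 and 1.38 times the AL level, with 1 HD rat inside the range of the AL rats for each. Cat, Hmox1, Sod2 and Nfe2l2 were at 1.08 to 1.48 times the AL level with overlapping groups, and Nqo1, Srxn1 and Sod1 were at 1.00 to 1.06 times it. None of the 10 was called after adjustment by edgeR. Before adjustment 2 of the 10 were below 0.05, Gpx3 and Txnrd1, both higher in the HD group, beside 4.66% of all tested genes in that direction and 5.94% in the other. The HD rats lay above all AL rats in 1 of the 10 genes, beside 7.25% of all tested genes, and below all AL rats in 0, beside 7.01%. The median log2 fold change of the 10 genes was 0.23 and that of all tested genes was 0.0067. With library size alone as the scaling, these medians were 0.15 and -0.074, and the log2 fold changes of Nqo1, Srxn1 and Sod1 were below 0.

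**Figure D1:**
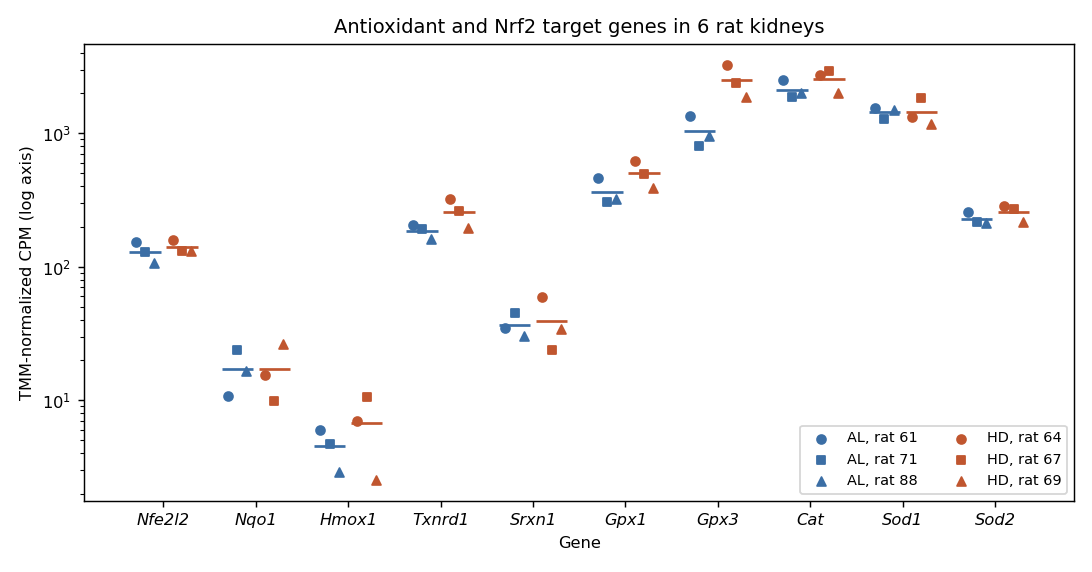
TMM-normalized CPM (log axis) of the 10 genes in each of the 6 rats, AL in blue and HD in red, with a short line at each group mean. The 3 HD rats lie above the 3 AL rats for Gpx3 alone.

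The transcript of Nrf2 itself had overlapping levels on both diets. Nfe2l2 lies on chromosome 3 (69041647 to 69069070, build rn5), with 5 exons. It was at 152, 128 and 106 CPM in AL rats 61, 71 and 88 and at 157, 131 and 130 CPM in HD rats 64, 67 and 69. The means were 129 ± 22.8 CPM for AL and 140 ± 15.4 CPM for HD (SD, *n* = 3 each). HD rat 64 was the highest of all 6 rats, and the other HD rats lay inside the AL range. In log2 terms Nfe2l2 differed by 0.12 (standard error 0.16, edgeR adjusted *P* = 0.857), and an interval of 2 standard errors ran from -0.20 to 0.43. Keap1, the repressor of Nrf2, was at 61.1 to 62.2 CPM in the AL rats and at 55.3 to 72.9 CPM in the HD rats, which is 0.06 in log2 (standard error 0.12, edgeR adjusted *P* = 0.912), and between -0.02 and 0.05 under other scalings. Bach1, the repressor of many Nrf2 targets, was at 9.69, 10.4 and 7.48 CPM in the AL rats and at 21.5, 12.3 and 12.6 CPM in the HD rats. The groups did not overlap, and its log2 fold change was 0.75 (standard error 0.27, edgeR adjusted *P* = 0.409). Without rat 64 it was 0.44. Of 10 tested regulators and partners of Nrf2, Bach1 alone was below 0.05 before adjustment, in edgeR and in DESeq2. In edgeR 4.66% of all tested genes were so in that direction. None of the 10 passed the adjusted threshold of either method. The unadjusted edgeR value of Bach1 rose to 0.0908 without rat 64 and to 0.0833 without rat 88. Their median was 0.08 in log2, and -0.0067 with library size alone.

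Txnrd1 encodes cytosolic thioredoxin reductase, the selenoenzyme that uses NADPH to keep thioredoxin reduced. The gene lies on chromosome 7 (27065819 to 27104095, build rn5), with 15 exons. It was at 205, 190 and 161 CPM in AL rats 61, 71 and 88 and at 319, 262 and 194 CPM in HD rats 64, 67 and 69. Rats 64 and 67 were above every AL rat, and rat 69 was between AL rats 71 and 61. The means were 185 ± 22.5 and 258 ± 63.0 CPM (SD, *n* = 3 each). Txnrd1 differed by 0.48 in log2 (standard error 0.20, edgeR adjusted *P* = 0.456), and DESeq2 gave an adjusted *P* of 0.316. It ranged from 0.30 to 0.66 when single rats were left out. The unadjusted value from edgeR was 0.0420 with all rats, 0.0773 without rat 71, 0.132 without rat 88, 0.155 without rat 64 and 0.0890 without rat 67.

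Srxn1, Nqo1 and Hmox1 are the targets most often read as a sign of active Nrf2, and none of them separated the groups. Srxn1 encodes sulfiredoxin, which restores overoxidized peroxiredoxins, and was at 34.9, 44.8 and 30.4 CPM in AL rats 61, 71 and 88. In HD rats 64, 67 and 69 it was at 59.3, 23.9 and 33.9 CPM, so the HD group held both the highest and the lowest rat. Its log2 fold change was 0.08 (standard error 0.32, edgeR adjusted *P* = 0.965), and it was 0.34 without rat 67 and -0.34 without rat 64. Nqo1 encodes a quinone reductase that prevents redox cycling of quinones. It was at 10.8, 23.7 and 16.6 CPM in AL rats 61, 71 and 88 and at 15.4, 9.89 and 26.2 CPM in HD rats 64, 67 and 69. Again the highest and the lowest rat were both of the HD group. The log2 fold change of Nqo1 was 0.01 (standard error 0.40, edgeR adjusted *P* = 0.994), and 2 standard errors spanned -0.79 to 0.81, which leaves room for a change of either sign. The ratio of Nqo1 to Nfe2l2 within a rat had a log2 mean of -2.97 ± 0.738 for AL and -3.13 ± 0.729 for HD (SD, *n* = 3 each, two-sided exact permutation test, *P* = 1.0, adjusted over 3 ratios 1.0).

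Hmox1 encodes heme oxygenase 1, which splits heme into biliverdin, iron and carbon monoxide and is also expressed by macrophages. It was the least abundant of the 10 genes, with 44 to 212 counts in a rat. Its levels were 6.04, 4.71 and 2.91 CPM in AL rats 61, 71 and 88 and 7.05, 10.6 and 2.53 CPM in HD rats 64, 67 and 69. Rat 67 was the highest and rat 69 the lowest of all 6 rats, a spread of 4.19 times across rats. Hmox1 differed by 0.56 in log2 (standard error 0.52, edgeR adjusted *P* = 0.771), and it ranged from 0.05 without rat 67 to 0.97 without rat 69. All 11 tested macrophage markers had lower levels in the HD group. In edgeR 8 were below 0.05 before adjustment, beside 5.94% of all tested genes in that direction, and none after it. Without rat 71 only Lyz2 and C1qc of these 8 stayed below 0.05, at 0.00739 and 0.0471, and the others reached up to 0.326. The HD rats lay below all AL rats in 1 of the 11 markers, beside 7.01% of all tested genes. DESeq2 called Lyz2 alone after adjustment (adjusted *P* = 0.0213). The markers summed to 342, 795 and 542 CPM in AL rats 61, 71 and 88. In HD rats 64, 67 and 69 they summed to 244, 189 and 395 CPM. None of the 12 listed was at 0 in every rat, and their part in the Hmox1 values was not tested.

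Gpx3 encodes the glutathione peroxidase that is secreted into plasma, and the gene lies on chromosome 10 (40019704 to 40027691, build rn5), with 5 exons. It was at 1351, 802 and 958 CPM in AL rats 61, 71 and 88 and at 3256, 2394 and 1860 CPM in HD rats 64, 67 and 69. The lowest HD rat was thus above the highest AL rat. Mean levels were 1037 ± 283 CPM for AL and 2504 ± 705 CPM for HD (SD, *n* = 3 each). The two-sided exact permutation test gave *P* = 0.1, the smallest it can give here. Gpx3 differed by 1.27 in log2 (standard error 0.27), and edgeR gave 0.00179 as the unadjusted and 0.368 as the adjusted *P* value. DESeq2 gave 1.26 (standard error 0.26, adjusted *P* = 0.000519), and Gpx3 was the only one of the 10 genes past its adjusted threshold, as were 0.805% of all tested genes in this direction. Leaving out single rats moved the value from 1.04 without rat 64 to 1.51 without rat 61.

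The summed level of proximal tubule markers was also higher in each HD rat than in every AL rat. Of 8 tested markers 6 were higher and 2, Cubn and Slc27a2, lower in the HD group. In edgeR 3 were below 0.05 before adjustment (Slc34a1, Slc22a6 and Slc13a3, all transporters of the tubule) and none after it. All 3 were higher, beside 4.66% of all tested genes in that direction. DESeq2 called Slc22a6 and Slc13a3 after adjustment (adjusted *P* = 0.00302 and 0.00415). None of the 9 listed markers was at 0 in every rat, although Slc5a12 had too few counts to be tested. The 8 tested markers summed to 10334, 9393 and 8789 CPM in AL rats 61, 71 and 88 and to 13231, 11680 and 11275 CPM in HD rats 64, 67 and 69. Gpx3 as a percentage of this sum was 13.1, 8.54 and 10.9% in the AL rats and 24.6, 20.5 and 16.5% in the HD rats. The log2 difference per marker sum, computed after the values were seen, was 0.92, and the groups did not overlap (two-sided exact permutation test, *P* = 0.1). Aqp1 had the highest level of the 8 markers in both groups (3833 and 4451 CPM, log2 fold change 0.22). Slc22a6, Slc13a3 and Slc34a1 differed by 1.07, 0.82 and 0.70 in log2, Cubn by -0.05 and Slc27a2 by -0.19. The difference per sum thus depends on which markers are summed, and Gpx3 was not divided by single markers. Txnrd1 and Gpx1 had differences per marker sum of 0.11 and 0.12, with overlapping groups. Nfe2l2 was at 1.21 to 1.47% of the sum in the AL rats and at 1.12 to 1.19% in the HD rats, a log2 difference of -0.22 on this scale.

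**Figure D2:**
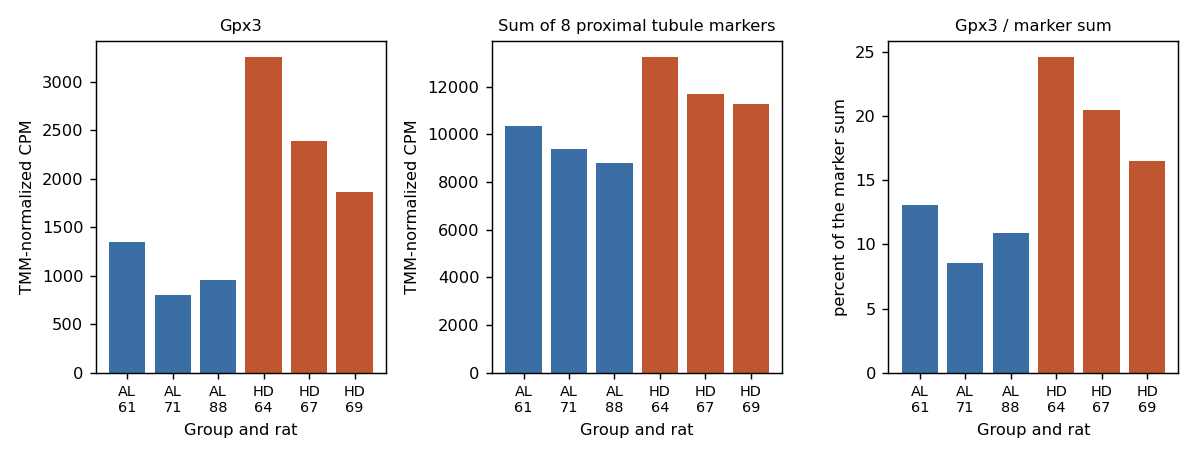
Bars for the 6 rats, AL in blue and HD in red, show the CPM of Gpx3, the summed CPM of 8 proximal tubule markers, and Gpx3 as a percentage of that sum. As a percentage of this sum Gpx3 is higher in every HD rat, at 16.5 to 24.6% against 8.54 to 13.1%.

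Gpx1 encodes the glutathione peroxidase of the cytosol and mitochondria, and lies on chromosome 8 (116466118 to 116467216, build rn5). It was at 465, 306 and 319 CPM in AL rats 61, 71 and 88 and at 622, 499 and 387 CPM in HD rats 64, 67 and 69. Rat 69 lay inside the AL range and the other two HD rats above it. Gpx1 differed by 0.47 in log2 (standard error 0.23, edgeR adjusted *P* = 0.525), and DESeq2 gave an adjusted *P* of 0.436. The ratio of Gpx3 to Gpx1, which does not depend on the scaling between libraries, separated the groups. On the log2 scale it was 1.54, 1.39 and 1.59 in AL rats 61, 71 and 88 and 2.39, 2.26 and 2.26 in HD rats 64, 67 and 69. The means were 1.51 ± 0.101 and 2.31 ± 0.0725 (SD, *n* = 3 each), a difference of 0.80 (two-sided exact permutation test, *P* = 0.1, adjusted over 3 ratios 0.3). Each HD rat had a higher ratio than every AL rat.

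Catalase (Cat), the peroxisomal enzyme that breaks down hydrogen peroxide, was at 2483, 1877 and 1987 CPM in AL rats 61, 71 and 88 and at 2735, 2941 and 2014 CPM in HD rats 64, 67 and 69. Rat 69 was again within the AL range. Its log2 fold change was 0.28 (standard error 0.19, edgeR adjusted *P* = 0.675). Sod2, the manganese superoxide dismutase of mitochondria, was at 257, 218 and 212 CPM in the AL rats and at 287, 272 and 218 CPM in the HD rats, or 0.18 higher in log2 (standard error 0.14, edgeR adjusted *P* = 0.734). Sod1, the copper-zinc enzyme of the cytosol, was at 1533, 1284 and 1494 CPM in the AL rats and at 1324, 1829 and 1169 CPM in the HD rats. The HD rats spanned the AL range on both sides, and the log2 fold change of Sod1 was 0.0040 (standard error 0.19, edgeR adjusted *P* = 0.996), with 2 standard errors from -0.38 to 0.39. The log2 ratio of Sod2 to Sod1 averaged -2.65 ± 0.146 for AL and -2.46 ± 0.274 for HD (SD, *n* = 3 each, two-sided exact permutation test, *P* = 0.4, adjusted over 3 ratios 0.6). Blood cells carry much Cat, Sod1 and Gpx1, and 5 of 6 tested erythroid markers were higher in the HD group. Of these, 2 were below 0.05 in edgeR before adjustment, beside 4.66% of all tested genes in that direction. The markers summed to 559, 901 and 657 CPM in AL rats 61, 71 and 88 and to 967, 1438 and 805 CPM in HD rats 64, 67 and 69. Of the listed markers found in the files, none was at 0 in every rat, and their part in these values was not tested.

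**Figure D3:**
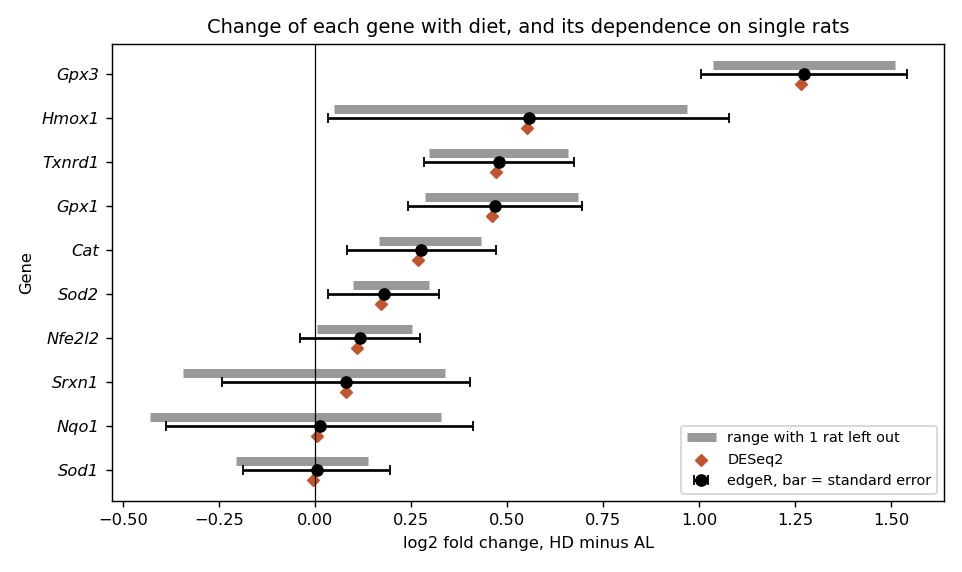
Log2 fold change (HD minus AL) of each gene from edgeR with its standard error as a bar, the DESeq2 estimate as a diamond, and in grey the range over 6 fits that each left out 1 rat. The grey range crosses 0 for Sod1, Nqo1 and Srxn1 and stays above 1 for Gpx3.

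Levels between genes were compared per transcript length, as TPM. In the AL group Sod1 was the most abundant at 3757 ± 190 TPM (SD, *n* = 3), followed by Cat at 1316 ± 79.2 and Gpx3 at 1124 ± 199, whose ranges overlapped. Gpx1 followed at 677 ± 101 TPM and Sod2 at 177 ± 9.13. Nfe2l2 (88.7 ± 12.1 TPM) and Txnrd1 (85.3 ± 10.0) overlapped, as did Srxn1 (20.4 ± 5.55) and Nqo1 (19.4 ± 8.93), and Hmox1 was lowest at 4.71 ± 1.41 TPM. In the HD group Gpx3, at 2602 ± 650 TPM (SD, *n* = 3), stood above Cat at 1518 ± 213 without overlap and overlapped with Sod1 at 3572 ± 704. Of the summed TPM of Cat, Gpx1 and Gpx3, the 3 peroxide-removing enzymes among the genes, Gpx3 made up 37.9, 33.5 and 36.3% in AL rats 61, 71 and 88. In HD rats 64, 67 and 69 it made up 55.4, 48.6 and 50.7%. Cat had the highest TPM of the 3 in every AL rat and Gpx3 in every HD rat.

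A trait that the choice of genes did not use was the amino acid selenocysteine, which Gpx1, Gpx3 and Txnrd1 carry in their active sites. These 3 genes had the 3 smallest unadjusted *P* values of the 10, from 0.00179 to 0.0762, with log2 fold changes of 0.47 to 1.27. The other 7 genes had unadjusted *P* values from 0.193 to 0.984 and log2 fold changes of 0.0040 to 0.56. This grouping was made after the values were seen and was given no test. Of 14 tested genes on a list of selenocysteine synthesis and of selenoproteins outside the peroxidase and reductase families, 9 were higher and 5 lower in the HD group, with a median of 0.04 in log2, and of -0.04 by library size alone. None of these 14 genes was below 0.05 in edgeR before adjustment, and the smallest adjusted *P* value was 0.498. The closest relatives of the 3 genes stood on other lists. In log2 Gpx2 differed by -0.61 and Gpx4 by 0.10, Txnrd2 by 0.27 and Txnrd3 by 0.00099, and the methionine sulfoxide reductase gene Msrb1 by 0.24. Each had overlapping groups, with edgeR unadjusted values from 0.140 to 0.996.

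A second trait was the order of the rats. In 6 of the 10 genes (Nfe2l2, Hmox1, Txnrd1, Gpx1, Cat and Sod2) the 3 highest levels were those of rats 61, 64 and 67, 1 rat of the AL group and 2 of the HD group, and in Nqo1 these 3 rats had the 3 lowest levels. Among all tested genes, 13.8% had these rats as the 3 highest and 13.8% as the 3 lowest. With library size alone the first count was 4 of the 10 genes beside 4.60% of all tested genes, and on the TPM scale it was 3 beside 3.66%. Nqo1 had these rats lowest under all 3 scalings, but so did 23.8% of all tested genes with library size alone and 26.2% on the TPM scale. Rats 61, 64 and 67 were also the rats with the lowest endothelial and the lowest macrophage marker sums given above. This order was noticed in the values and was given no test.

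Beyond the 10 genes, 27 other Nrf2 targets were tested. Of these 20 were higher and 7 lower in the HD group, and none passed the adjusted threshold of edgeR or DESeq2. Before adjustment 3 of the 27, all higher, were below 0.05 in edgeR, beside 4.66% of all tested genes in that direction. In log2 the median was 0.18, and 0.09 by library size alone. The 3 genes act in glutathione metabolism. Gclm, the regulatory subunit of the enzyme that starts glutathione synthesis, was at 1610, 1378 and 1489 CPM in AL rats 61, 71 and 88 and at 2317, 2022 and 1664 CPM in HD rats 64, 67 and 69. Gsr, glutathione reductase, was at 205, 196 and 194 CPM and at 322, 260 and 207 CPM in the same order. Gsta3, a glutathione transferase, was at 1057, 632 and 1008 CPM in the AL rats and at 1550, 1724 and 1123 CPM in the HD rats. All 3 genes, which were picked by their *P* values, separated the groups, and rat 69 was the HD rat nearest to the AL rats in each. Over the whole list the HD rats lay above all AL rats in 5 of 27 genes and below them in 1, beside the 7.25% and 7.01% of all tested genes. Their log2 fold changes were 0.42, 0.41 and 0.71, with adjusted *P* values of 0.426, 0.458 and 0.406 from edgeR and of 0.205, 0.352 and 0.123 from DESeq2. Without rat 64 the log2 fold change of Gsr was 0.23. The unadjusted edgeR value was above 0.05 without any single rat other than rat 69 for Gsr (up to 0.164), without rats 71, 88, 64 or 67 for Gclm (up to 0.137) and without rats 71, 64 or 67 for Gsta3 (up to 0.0753). Gsta3 belongs to a family of similar sequences, so its counts are uncertain. A point far to the right among these targets, named here after its value was seen, is Akr1b8, which was at 58.1 CPM in rat 64 and at 0.874 to 11.1 CPM in the other rats.

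Of 21 tested genes of the thioredoxin, peroxiredoxin and glutaredoxin systems, 16 were higher and 5 lower in the HD group. Their median was 0.09 in log2, and 0.02 by library size alone. Only Sesn2 and Txnip had an unadjusted edgeR *P* value below 0.05, both higher in the HD group, beside 4.66% of all tested genes in that direction. Sesn2, a stress-induced sestrin that also signals leucine scarcity to mTORC1, was at 30.7, 30.8 and 30.2 CPM in the AL rats and at 57.9, 46.8 and 45.7 CPM in HD rats 64, 67 and 69. The AL rats were nearly identical and the HD rats all well above them. The log2 fold change of Sesn2 was 0.71 (standard error 0.12, edgeR adjusted *P* = 0.327), and DESeq2 gave an adjusted *P* of 0.00352. Txnip, the inhibitor of thioredoxin, had a log2 fold change of 0.50 (standard error 0.18, edgeR adjusted *P* = 0.408), and its unadjusted value was 0.0770 without rat 71 and 0.0757 without rat 69. In edgeR none of the peroxiredoxin genes was below 0.05 before adjustment, nor was any of 10 tested genes for other superoxide and peroxide enzymes, whose median log2 fold change was 0.10. DESeq2 put 1 of those 10, the extracellular superoxide dismutase gene Sod3, below 0.05 before adjustment and none after it (adjusted *P* = 0.403).

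Genes whose products make superoxide or hydrogen peroxide went both ways. In edgeR 4 of 11 tested were higher and 5 lower at an unadjusted *P* value below 0.05, beside 4.66% and 5.94% of all tested genes. None passed the adjusted threshold of edgeR. Nox4, the NADPH oxidase of kidney epithelium, was at 15.2, 18.3 and 15.2 CPM in the AL rats and at 36.0, 29.3 and 21.5 CPM in the HD rats (log2 fold change 0.83, standard error 0.21, edgeR adjusted *P* = 0.379, 0.0506 from DESeq2). The 5 lower genes included Rac2 and Ncf1, subunits of the phagocyte NADPH oxidase. Rac2 was at 6.75, 13.1 and 8.14 CPM in AL rats 61, 71 and 88 and at 3.06, 2.70 and 6.23 CPM in HD rats 64, 67 and 69, with -1.21 in log2 (standard error 0.40, edgeR adjusted *P* = 0.406). Ncf1 was at 7.78, 18.5 and 10.9 CPM and at 4.41, 5.35 and 8.22 CPM in the same order, with overlapping groups and -1.04 in log2 (standard error 0.37, edgeR adjusted *P* = 0.409). Without rat 71 the value of Ncf1 was -0.63. Before adjustment both genes were above 0.05 in edgeR when rat 71, 64 or 67 was left out, with values up to 0.0734 for Rac2 and 0.104 for Ncf1. These subunits are made by the cells whose markers were also lower in the HD group, with the sums given beside Hmox1, and the part of those cells was not tested.

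Of 11 tested partners of heme synthesis and breakdown, Cpox alone had an unadjusted edgeR *P* value below 0.05. It was lower in the HD group, beside 5.94% of all tested genes in that direction. Cpox, a mitochondrial enzyme of heme synthesis, was at 92.2, 77.0 and 112 CPM in AL rats 61, 71 and 88 and at 44.6, 60.2 and 45.5 CPM in HD rats 64, 67 and 69. All HD rats were below all AL rats, with -0.90 in log2 (standard error 0.18, edgeR adjusted *P* = 0.338), and an adjusted *P* of 0.00256 from DESeq2.

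**Figure D4:**
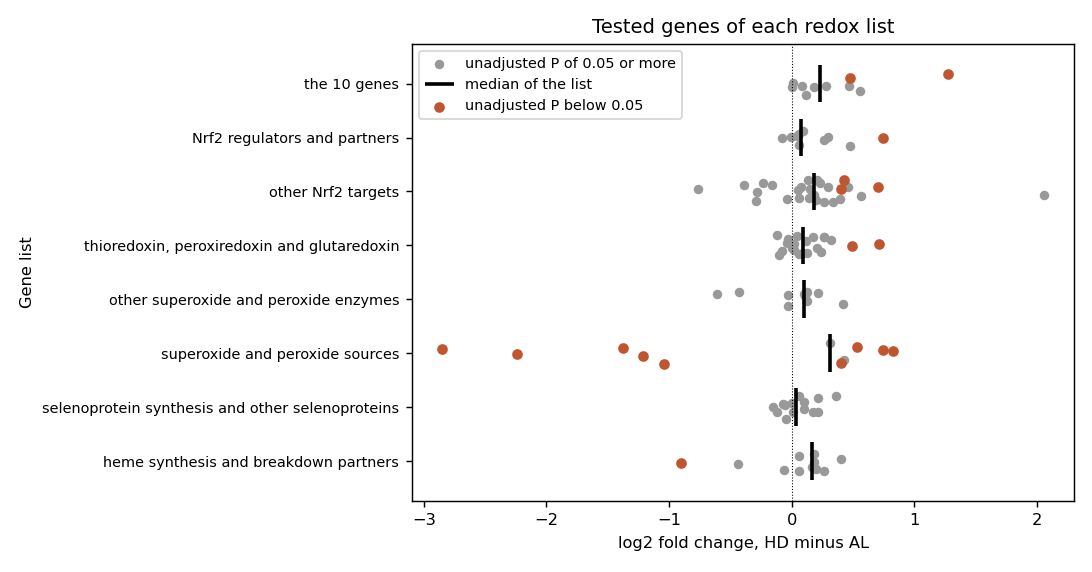
Log2 fold change (HD minus AL) of the tested genes of each list, 1 point a gene, red where the unadjusted P value was below 0.05, with a black line at the median. The medians lie between 0.04 and 0.31, and the genes below -1 are sources of superoxide and peroxide.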

How the data were processed

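RNA of 6 rat kidneys was sequenced from poly(A)-selected libraries with single reads. The authors quantified transcripts with RSEM 1.1.15 at default parameters against UCSC gene models of build rn5, and deposited for each rat expected counts, not normalized, posterior means of the same counts, and TPM values scaled to transcript length. Filters on reads are not given in the sources used here.

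Expected counts were summed per gene symbol and rounded, and genes that reached 30 counts in any rat were tested with edgeR 4.0.16 (quasi-likelihood, TMM, R 4.3.3) with diet as the only factor and Benjamini-Hochberg adjustment over all tested genes at a threshold of 0.05. The standard error was the absolute log2 fold change over the square root of F. The common biological coefficient of variation was 0.242. Exact permutation tests used log2 of CPM plus 0.5, or the log2 ratio, and were two-sided, with 0.1 as the smallest possible *P* value for 3 rats against 3. *P* values set the difference between the groups against the spread between these rats.

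Alternatives were DESeq2 1.42.0, RLE, library size alone, other count minimums, posterior mean counts, limma 3.58.1 on log2 of TPM plus 1, and each rat left out. The edgeR script was tested on simulated data. Of the other lists, genes were named where the unadjusted *P* value was below 0.05, at most 4 per list by smallest *P*, besides Keap1 and Bach1, and 1 gene that the rule selects is not reported here. The 10 genes and the lists were chosen with earlier results of these data known. Promoters came from RefSeq. Python 3.11.15 made the summaries.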

Additional observations from a re-analysis of the deposited data

How the results depend on the processing

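Of the 10 genes, Nfe2l2, Hmox1, Txnrd1, Gpx1, Gpx3, Cat and Sod2 kept a log2 fold change above 0 under every alternative fit. Per summed proximal tubule markers, a scale added after the values were seen, Gpx3 was at 0.92 and Nfe2l2, Cat and Sod2 were at -0.22, -0.075 and -0.17. Gpx3 ranged from 1.04 to 1.51 over the fits, its unadjusted edgeR, DESeq2 or limma *P* value was at most 0.00938, and DESeq2 alone put it past the adjusted threshold. The log2 fold changes of the other 3 genes reversed. Library size alone gave -0.073 for Nqo1, -0.014 for Srxn1 and -0.079 for Sod1, limma on TPM gave -0.094, -0.060 and -0.089, and a minimum of 10 counts in every rat gave -0.00074 for Nqo1 and -0.015 for Sod1. RLE and DESeq2 each gave -0.0049 for Sod1. With each rat left out, Nqo1 ranged from -0.43 to 0.33, Srxn1 from -0.34 to 0.34, Sod1 from -0.20 to 0.14, and the log2 ratio of Nqo1 to Nfe2l2 from -0.58 to 0.14. Genes at the adjusted threshold, 0 in edgeR, numbered 182 with DESeq2, 2 with no filter on low counts and 0 to 4 with a rat left out. Of the 10 genes, those at an unadjusted *P* value below 0.05 numbered 1 with library size alone or limma and 1 to 5 with a rat left out, 5 without rat 69. Without rat 61 the count was 3. The cause was not tested. No paired analysis was possible because the labels give no rat number to both groups. Of the 10 genes, Hmox1 was the least abundant, so counting error matters more for it than for the others. Its levels also spread 4.19 times across rats.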
